A study of Mus musculus with 4 samples.

Results

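The 6 genes described are Rgs1, Rgs2, Rgs10, Rgs14, Rgs16 and Rgs19, which encode RGS proteins, the regulators of G protein signalling. They were chosen by name, with earlier results of these data known, and every probe set annotated to them was read on each array. They are 6 of the 12393 genes that the arrays name by 1 symbol, and 10 of the 22690 probe sets. The study measured total RNA of mouse CD11c+ dendritic cells, labelled IL10-/-, after 6 h of culture. The 4 groups were cells given SEA and LPS together (SEA/LPS), cells given LPS, cells given SEA and cells in media alone, each with 1 array, and the control cells in media carry the same IL10-/- label. All 4 samples carry 1 lot in the labels, which do not name the tissue of origin, the doses, or separate animals or cultures. LPS is lipopolysaccharide of the bacterial outer membrane, sensed through TLR4, and SEA is not spelled out in the labels.

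RGS proteins bind the active, GTP-loaded alpha subunit of a heterotrimeric G protein and speed up its hydrolysis of GTP, which shortens the signal of the receptor upstream. In dendritic cells the receptors concerned include those for chemokines, so RGS proteins are among the molecules that set how strongly and for how long such a cell answers a chemoattractant. The members differ in reach: Rgs1 and Rgs16 act on alpha subunits of the Gi and Gq classes, Rgs2 has a preference for Gq, Rgs10 and Rgs19 act mainly on Gi-class subunits, and Rgs14 carries a second G alpha binding motif (GoLoco) and Ras-binding domains beside its RGS domain.

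Of the 6 members, 4 had an entry in the RefSeq promoter table of mouse build GRCm38.p6 (Rgs2, Rgs10, Rgs16 and Rgs19). Rgs2, Rgs16 and Rgs19 are shown, as the members with an entry whose signals differed most between arrays. Each line gives the 250 bases before a start in that table, 5′ to 3′ on the strand of the gene, and for Rgs19 the most upstream of the 3 starts in that table. Capitals mark the letters TGACG on either strand, the core of the cyclic AMP response element (CRE).
Rgs2, chr1:144004150-144004399, minus strand: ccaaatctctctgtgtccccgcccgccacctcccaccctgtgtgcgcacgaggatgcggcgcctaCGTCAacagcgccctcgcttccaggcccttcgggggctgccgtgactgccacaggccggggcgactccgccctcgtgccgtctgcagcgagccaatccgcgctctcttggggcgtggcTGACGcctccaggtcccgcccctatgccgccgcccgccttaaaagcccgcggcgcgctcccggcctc
Rgs16, chr1:153740103-153740352, plus strand: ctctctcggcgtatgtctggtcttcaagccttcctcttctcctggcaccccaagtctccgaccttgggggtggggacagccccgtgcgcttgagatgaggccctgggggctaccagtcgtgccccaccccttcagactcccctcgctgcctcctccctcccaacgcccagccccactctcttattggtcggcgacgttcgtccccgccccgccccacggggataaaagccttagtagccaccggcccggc
Rgs19, chr2:181693978-181694227, minus strand: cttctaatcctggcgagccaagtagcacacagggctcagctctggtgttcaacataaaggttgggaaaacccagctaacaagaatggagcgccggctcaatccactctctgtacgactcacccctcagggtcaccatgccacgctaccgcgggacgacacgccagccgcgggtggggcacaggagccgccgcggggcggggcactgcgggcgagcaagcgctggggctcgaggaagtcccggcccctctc
The Rgs2 window held the CRE core at 2 places, ending 63 bases before the start on the strand of the gene and 181 bases before it on the other strand. Of 32851 promoter windows of the same length, 17.8% held the core. That share is not matched for base content: the Rgs2 window was 72.4% G and C, and the median over the promoters was 52.4%. The AP-1 letters TGANTCA (6.75% of windows), the kappaB consensus (7.25%) and the interferon response element (2.98%) were searched on both strands and matched in 0 of the 6 windows of the 4 members. A match describes letters in the window and is not evidence of a bound site.

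The values are linear array signals that the authors deposited, with trimmed means of 150.1 on each array. Signals at or under a floor of 33.3, the 40th percentile of the 4 arrays pooled, were set to the floor, and 9473 genes with at least 1 array above it counted as measured. As a measure of RNA quality, the Gapdh probe sets at the 3' and 5' ends stood at a ratio of 3.12 with SEA/LPS, 2.42 with LPS, 2.69 with SEA and 2.21 in media. The 18 hybridisation control probe sets averaged 0.31 log2 over media with SEA/LPS, 0.55 with LPS and 0.09 with SEA. With 1 array a group there is no replicate error, no test was made, and genes were called by size only: the difference had to reach 2-fold and the brighter of the arrays had to exceed the floor. As a gauge of measurement scatter, 1545 genes had 2 probe sets above the floor on every array, and the log2 differences of such a pair lay a median of 0.38 apart for LPS over media and 0.29 apart for SEA over media. The 90th percentile of these gaps was 1.01 for LPS over media and 0.74 for SEA over media. For SEA/LPS over LPS the median gap was 0.37 and the 90th percentile 1.01. Both probe sets of a pair share the arrays, so the gauge leaves out differences between arrays and cultures. All 6 members were measured, 5 of them above the floor on every array. Signals of different genes come from different probes and are not set against each other here.

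**Figure D1:**
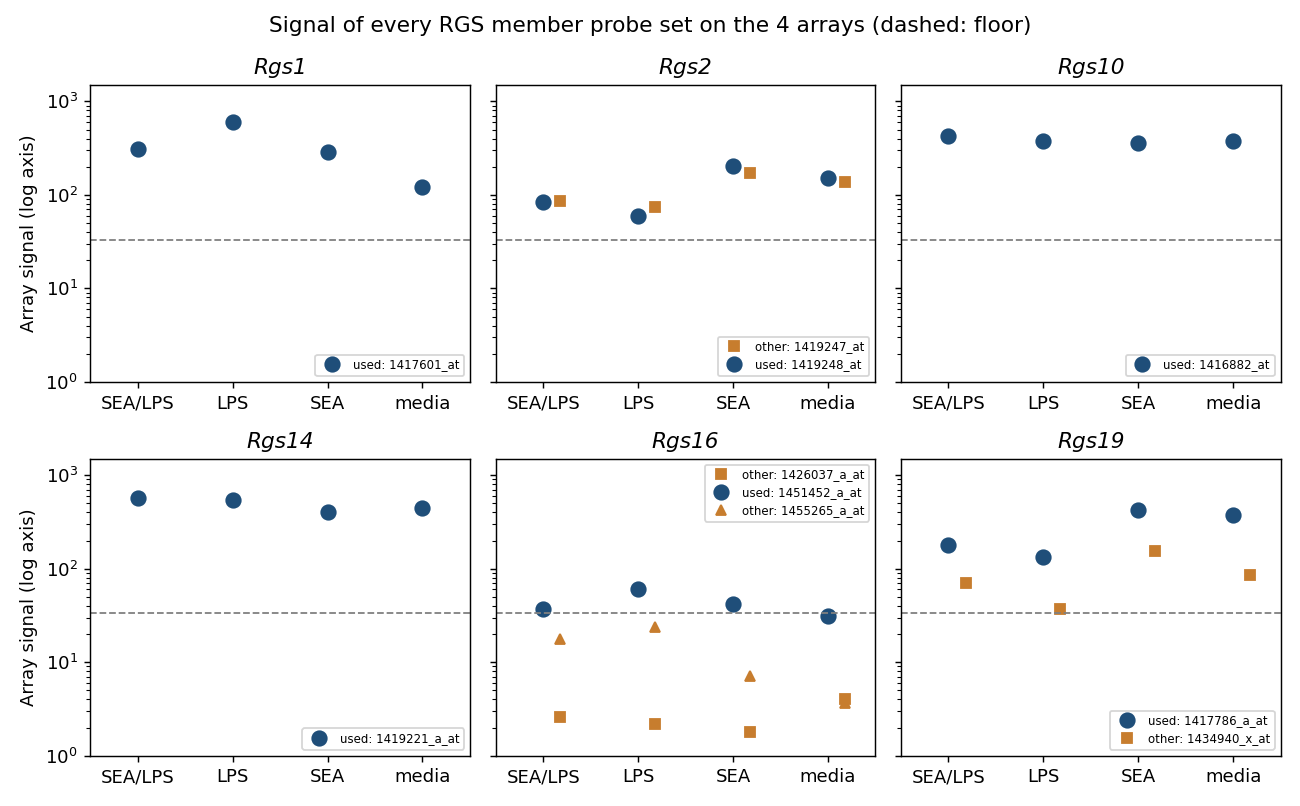
Signal of each probe set of the 6 RGS genes on the SEA/LPS, LPS, SEA and media arrays, on a log axis; circles are the probe set used for the gene, squares and triangles its other probe sets (drawn slightly to the right), and the dashed line is the floor of 33.3. Rgs1 was highest with LPS (596) and lowest in media (122), Rgs2 and Rgs19 were lowest with LPS, and Rgs10 and Rgs14 stayed within a narrow band.

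Rgs1, known in B lymphocytes for restraining the response to chemokines, had the highest signal with LPS and the lowest in media. Its signal was 308 with SEA/LPS, 596 with LPS, 287 with SEA and 122 in media. Each stimulated array was thus above the media array. The difference was 4.88-fold for LPS over media (2.29 log2), 2.52-fold for SEA/LPS over media (1.34) and 2.35-fold for SEA over media (1.23). Among 9473 measured genes the difference for SEA over media was the 29th highest and that for LPS over media the 128th highest. SEA/LPS over LPS was -0.95 log2, or 1.93-fold lower and just within the 2-fold size rule. Rgs1 has 1 probe set, so no other probe set bears on these values.

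Rgs16, an RGS protein consisting of little more than its RGS domain, also had its highest signal under LPS. The probe set used read 37.0 with SEA/LPS, 61.3 with LPS, 41.6 with SEA and 31.2 in media, the last at the floor. The differences over media are therefore bounds, of at least 1.84-fold for LPS, at least 1.25-fold for SEA and at least 1.11-fold for SEA/LPS, none of which reaches 2-fold. SEA/LPS over LPS was -0.73 log2, or 1.66-fold lower. The other 2 probe sets lay under the floor on all 4 arrays, at 1.8 to 4.0 and at 3.7 to 23.8, and give no order.

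Rgs2, a regulator of Gq signals whose transcript is known to respond to cyclic AMP in several cell types, was lowest with LPS. Its signal was 84.1 with SEA/LPS, 60.1 with LPS, 202 with SEA and 150 in media. Both arrays with LPS lay under both arrays without it. LPS over media was -1.32 log2, or 2.49-fold lower, and SEA/LPS over media was -0.83, or 1.78-fold lower. SEA over media was 0.43 log2, or 1.35-fold higher, and SEA/LPS over LPS was 0.48, or 1.40-fold higher. The other Rgs2 probe set read 86.6 with SEA/LPS, 74.3 with LPS, 170 with SEA and 136 in media. It put the arrays in the same order, with smaller differences: -0.88 log2 for LPS over media, or 1.83-fold lower and short of 2-fold, and 0.32 for SEA over media. The 2-fold call of Rgs2 with LPS thus rests on which of its probe sets is read.

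Rgs19, also called GAIP, a regulator of Gi-class subunits, followed the order of Rgs2. Its signal was 180 with SEA/LPS, 132 with LPS, 421 with SEA and 378 in media. Again both arrays with LPS lay under both arrays without it. LPS over media was -1.52 log2, or 2.86-fold lower, the 223rd lowest of 9473 genes. SEA/LPS over media was -1.07, or 2.10-fold lower, while SEA over media was 0.15 and SEA/LPS over LPS was 0.45. The SEA/LPS over media call of Rgs19 was lost under 75th percentile scaling (-0.87), after quantile normalization (-0.96) and with the mean of its probe sets (-0.68). The other Rgs19 probe set, which is marked as able to cross-hybridise, read 69.6 with SEA/LPS, 36.6 with LPS, 153 with SEA and 85.4 in media. Its LPS over media difference of -1.22 log2 was past 2-fold in the same direction. Its SEA/LPS over media difference of -0.30 was not, and its SEA over media difference of 0.84 was larger than that of the probe set used.

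Rgs10 and Rgs14 differed least across the arrays. Rgs10, a small RGS protein studied in mouse microglia as a brake on inflammatory signalling, read 426 with SEA/LPS, 373 with LPS, 359 with SEA and 380 in media. Its highest signal was 1.19 times its lowest. Rgs14 read 575 with SEA/LPS, 540 with LPS, 404 with SEA and 445 in media, with its highest signal 1.42 times its lowest. Both arrays with LPS were above both arrays without it for Rgs14, by 0.28 log2 for LPS over media and 0.37 for SEA/LPS over media. Both differences lie under the median gap between probe sets of a gene or close to it (0.38 and 0.33). Each of these genes has 1 probe set.

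**Figure D2:**
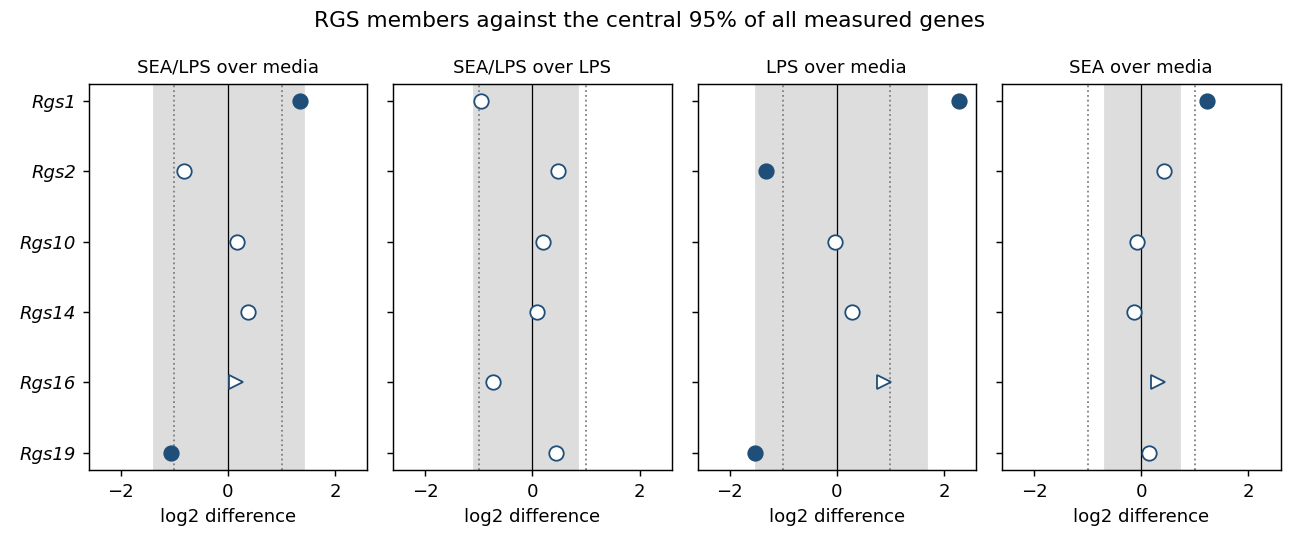
Log2 differences of the 6 RGS genes in the 4 comparisons; filled symbols are at 2-fold or more, triangles are lower bounds (Rgs16 at the floor in media), dotted lines mark 2-fold and the grey band holds the central 95% of 9473 measured genes. Rgs1 lies outside the band for LPS over media (2.29) and SEA over media (1.23), and Rgs19 lies at its lower edge for LPS over media (-1.52).

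Counted by comparison, LPS over media had 3 of the 6 members past 2-fold, Rgs1 higher and Rgs2 and Rgs19 lower, against 14.5% of all measured genes past 2-fold either way. SEA over media had 1 of 6, Rgs1, against 1.28% of all genes. SEA/LPS over media had 2 of 6, Rgs1 higher and Rgs19 lower, against 11.6%. SEA/LPS over LPS had 0 of 6, against 4.87%. The median log2 difference of the 6 members was 0.13 for LPS over media (-0.06 over all measured genes), 0.24 for SEA over media (0.00), 0.16 for SEA/LPS over media (-0.12) and 0.14 for SEA/LPS over LPS (-0.01). The comparisons share arrays, so their counts are not independent of each other. The members were chosen with earlier results of these data known, so the shares do not test whether the family differs from other genes.

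The LPS difference of Rgs1 was the one that differed most between cells with and without SEA. It was 0.10 log2 for SEA/LPS over SEA (308 and 287) and 2.29 for LPS over media (596 and 122). The SEA difference with LPS minus the SEA difference without it, the departure from additivity, was -2.19 log2, the 20th lowest of 9473 genes, and 9.70% of genes departed by 2-fold or more either way. For Rgs16 the departure was -1.05, with media at the floor. Rgs2 and Rgs19 had departures of 0.05 and 0.29, so that SEA/LPS over SEA was -1.26 for Rgs2 (2.40-fold lower) and -1.22 for Rgs19 (2.33-fold lower), past 2-fold as with LPS alone. For SEA/LPS over SEA, 11.0% of all genes were past 2-fold either way. Rgs10 departed by 0.27 and Rgs14 by 0.23.

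Rgs1 and Rgs2 are neighbours on chromosome 1 in the RefSeq annotation of GRCm38.p6, with 1 protein-coding gene, Rgs13, between them and Rgs21 and Rgs18 beyond Rgs1. Their LPS over media differences had opposite signs, 2.29 and -1.32 log2. Rgs18 was at the floor on all 4 arrays, with signals of 8.90 to 19.9 over its 2 probe sets.

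Genes with a pattern like that of each member were found by the largest gap over the 3 log2 differences against media, among 7142 genes above the floor on all 4 arrays. Closest to Rgs1 were Rab32 (largest gap 0.43 log2), Trim25 (0.48) and Cd14 (0.49), the co-receptor for LPS, and 0 of the 7142 genes lay within 0.25 of it. Closest to Rgs2 were Mrpl18 (0.11), Fbxl20 (0.13) and Ttc3 (0.14), with 20 genes within 0.25. Closest to Rgs19 were Ccdc115 (0.08), Trappc12 (0.11) and Mllt10 (0.11), with 36 genes within 0.25. Rgs16 lay near Arnt (0.08), Htr1d (0.08) and Dio2 (0.09), with 79 within 0.25. Rgs10 lay near Fcer1g (0.04), Kcnab1 (0.05) and Zranb1 (0.06), with 508 genes within 0.25, and Rgs14 near Vangl2 (0.01), Armc5 (0.05) and Scin (0.05), with 251.

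The remaining genes of the pathway were read from 6 lists holding 150 genes, of which 119 were on the array and 93 measured. With LPS over media, 5 of the 93 were past 2-fold upward and 18 downward, against 6.06% and 8.43% of all measured genes. With SEA over media 0 of 93 passed 2-fold in either direction, against 1.28% of all genes. With SEA/LPS over LPS 1 was higher and 3 lower, against 4.87% of all genes either way. With SEA/LPS over media 5 were higher and 14 lower, against 11.6% of all genes either way. These lists, too, were chosen with earlier results of these data known.

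Among other RGS genes and genes of RGS partners, 1 of 12 was higher and 2 lower with LPS than in media. Those past 2-fold were the GoLoco genes Gpsm2, Gpsm3 and Gpsm1. The measured Rgs genes of this list were within 2-fold: Rgs3 (-0.28 log2), Rgs5 (0.59), Rgs8 (-0.09, at the floor with LPS), Rgs9 (0.27) and Rgs11 (0.12). Gpsm2, a GoLoco protein of spindle orientation that binds Gi-class subunits as Rgs14 does, read 390 with SEA/LPS, 242 with LPS, 99.5 with SEA and 96.2 in media. Its LPS over media difference of 1.33 log2 was 0.78 when the arrays were scaled to the hybridisation controls. Gpsm3, a GoLoco protein of leukocytes, was 3.05-fold lower with LPS (113) than in media (344), and Gpsm1 was at least 2.13-fold lower. Gipc1, named for its binding to Rgs19, had the largest SEA/LPS over LPS difference of this list: 71.6 with SEA/LPS and 214 with LPS, or 2.99-fold lower. Its levels with LPS, SEA and media were 214, 234 and 193, so it was the SEA/LPS array alone that stood low for this gene. Axin2, which has an RGS-like domain, read 44.3 with SEA/LPS and 93.6 with LPS, a 2.11-fold lower signal. For SEA/LPS over media, Rgs3 was 2.11-fold lower (65.4 and 138). Its other probe sets were short of 2-fold in that comparison, the brightest of them at -0.96 log2.

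The members act on the subunits of G proteins. Of 12 measured G alpha genes, Gna15, a Gq-class subunit of blood cells, was the one past 2-fold with LPS over media (-1.10 log2, 127 and 272), and Gna15 (-1.68) and Gna11 (-1.02), also of the Gq class, were those past 2-fold for SEA/LPS over media. The other Gna11 probe set read -0.23 for SEA/LPS over media (66.2 and 77.8), so the call of Gna11 rests on which probe set is read. Gnai2 differed by -0.46 and Gnai3 by 0.46 between LPS and media, Gnaq by 0.63 and Gna13 by 0.77. Of 11 G beta and gamma genes, Gnb4 was higher (1.02) and Gng4 lower (-1.09) with LPS over media, and Gng2 was lower (-1.07) for SEA/LPS over media. The list medians for LPS over media, 0.13 and 0.19, were -0.14 and -0.36 when scaled to the hybridisation controls.

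All 4 measured receptor kinases and arrestins, which switch off the receptor itself where RGS proteins switch off the G protein, were at least 2-fold lower with LPS than in media, with a median of -1.59 log2. Arrb1 read 114 with SEA/LPS, 58.7 with LPS, 358 with SEA and 369 in media, and Arrb2 read 410, 243, 660 and 778 on the same arrays. Both arrestins were lowest with LPS and, like Rgs2 and Rgs19, lay between LPS and media with SEA/LPS. Grk5 was 2.85-fold lower and Grk6 2.01-fold lower with LPS over media. Grk6 was -0.87 under 75th percentile scaling and -0.93 after quantile normalization, and its other probe set read -0.26. The median stayed below 0 under every scaling tried, from -2.15 to -1.46.

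Of 31 measured receptors, 2 were higher and 5 lower with LPS over media. Ccr7, the receptor that guides mature dendritic cells to lymph nodes, was 3.97-fold higher and Fpr2, a formyl peptide receptor, 2.97-fold higher. Ccr2, a receptor of monocytes and immature cells, was 8.69-fold lower, and P2ry6 (-1.66 log2), C3ar1 (-1.18) and Ptgir (-1.17) were also past 2-fold. The other C3ar1 probe set read -0.19 for LPS over media. With SEA/LPS over LPS, Ccr2 was higher (1.15) and Ptgdr at least 2.56-fold lower. Ccr1 (-0.31 for LPS over media) and C5ar1 (0.20) were within 2-fold. Cxcr4 was at least 1.35-fold lower, being at the floor with LPS and 45.0 in media. With SEA/LPS over media, Fpr2 (2.04), Ccr7 (1.26) and P2ry14 (1.11) were higher, and Ccr2 (-1.97), P2ry6 (-1.94) and Ltb4r1 (-1.31) lower. Under hybridisation control scaling 1 receptor was higher and 7 lower in that comparison. For Ccr2, its 2 further probe sets read -0.50 and a bound of -1.49 (at the floor with LPS) for LPS over media, and 0.01 and 0.00 (at the floor on both arrays) for SEA/LPS over LPS. They read -0.49 and a bound of -1.49 for SEA/LPS over media.

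Of 23 effector and cyclic AMP genes, Pde4b, which breaks down cyclic AMP, was 3.78-fold higher with LPS (950) than in media (252), and 5 were lower. These were Rap1gap (-1.90 log2), Adcy7 (-1.43), Prkaca (-1.23), Arhgef1 (-1.05) and Pik3cg (-1.03). Arhgef1 is itself an RGS-domain protein acting on the G12 class. Prkacb was past 2-fold for SEA/LPS over media alone among the comparisons (-1.11). Its other probe set read -0.14 there, and 0.45 for LPS over media where the one used read -0.90. Further probe sets of Adcy7 read -0.34 and -1.03 for LPS over media, and that of Pik3cg read -0.98. Calls near 2-fold depended on the scaling. Under 75th percentile scaling Gna15 (-0.96), Gng4 (-0.95), Gpsm1 (-0.96), Arhgef1 (-0.92) and Pik3cg (-0.90) were short of 2-fold for LPS over media, as were Rgs3 (-0.88), Gna11 (-0.81), Gng2 (-0.86) and Prkacb (-0.91) for SEA/LPS over media. Gnb4 was 0.46 for LPS over media under hybridisation control scaling, and Axin2 was -0.93 for SEA/LPS over LPS after quantile normalization.

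**Figure D3:**
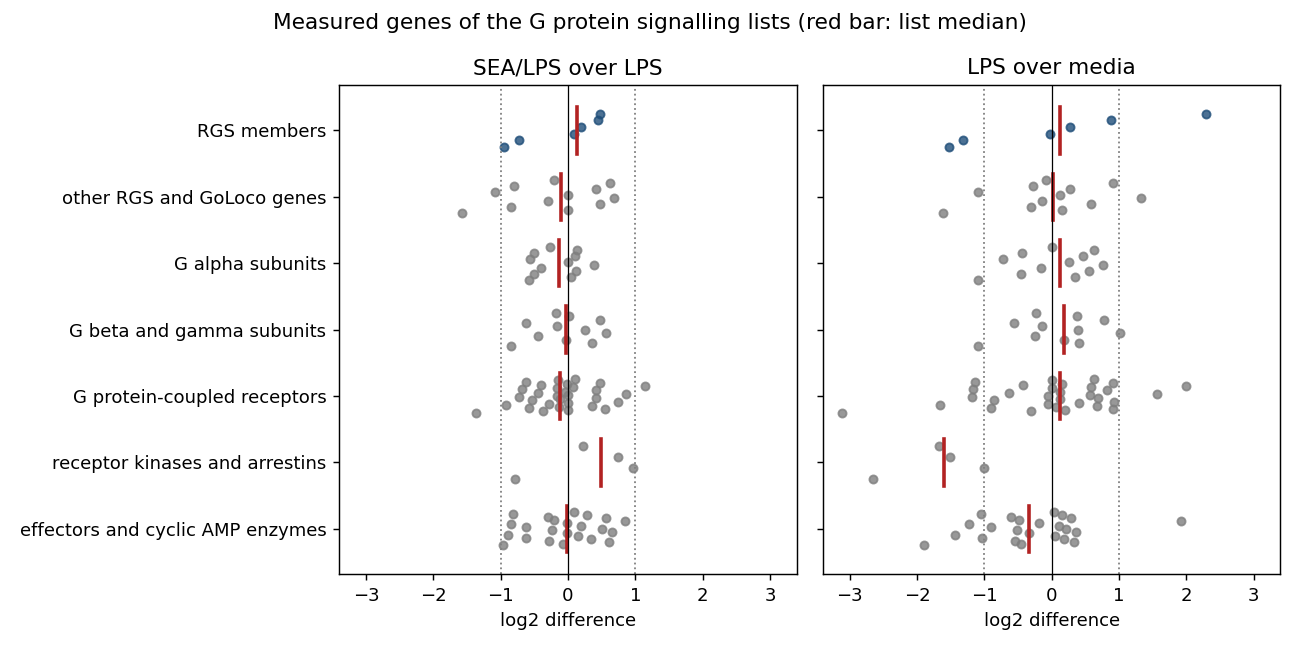
Log2 differences of the 6 RGS genes (blue) and of the measured genes of 6 other G protein signalling lists (grey) for SEA/LPS over LPS and LPS over media; red bars are list medians and dotted lines mark 2-fold. The RGS genes spread from -1.52 to 2.29 for LPS over media, and the receptor kinases and arrestins all lie at or beyond -1.01.

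Markers of the labelled cell type were present. Itgax, which encodes CD11c, read 2093 with SEA/LPS, 1851 with LPS, 2181 with SEA and 2732 in media, and 9 of 10 dendritic cell markers with SEA/LPS and 10 of 10 on the other arrays were above the floor. Macrophage markers were above the floor on every array (4 of 4), with summed signals of 6615, 5966, 7262 and 7376 for SEA/LPS, LPS, SEA and media. Lymphocytes are a known source of Rgs1 and Rgs2 transcripts. Of 6 T cell markers, Cd3d, Cd3e, Cd3g, Cd2 and Trat1 lay at the floor on all 4 arrays and Thy1 read 29.0, 35.6, 47.6 and 38.3 in the same order of arrays. The T cell sums were 75.2, 95.7, 88.8 and 67.2. Of 5 B cell markers 2, 2, 3 and 3 were above the floor, with Cd79b and Pax5 at it throughout and summed signals of 153, 206, 215 and 204. NK cell markers summed to 203, 218, 129 and 133, with 3, 3, 1 and 2 of 4 above the floor. Neutrophil markers summed to 490, 490, 395 and 358, with 5, 5, 5 and 4 of 7 above the floor. Among them S100a8 read 182, 155, 90.1 and 85.1, and S100a9 and Camp were at the floor. Summed platelet markers were 3217, 2593, 4609 and 3892, which ranks the arrays as Rgs2 and Rgs19 do. Pf4 (2431, 2020, 3394 and 2920) and Ppbp (619, 341, 1044 and 786) make up most of that sum and share the ranking. Itga2b (106, 152, 118 and 96.0) and Gp9 (60.8, 80.4, 53.0 and 89.9) do not. The part of other cell types in the RGS signals was not tested. In such bulk samples fewer cells of a type and less RNA per cell cannot be told apart.

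The scaling of the arrays moved sizes more than directions for the members past 2-fold. Of all genes past 2-fold for LPS over media, 41.8% were higher in the deposited values. That share was 55.2% under 75th percentile scaling and 10.5% under hybridisation control scaling, where the median of all measured genes was -0.56 in place of -0.06. Over the deposited values, the other scalings and floors, log2(signal + 16), the mean of probe sets and the omission of cross-hybridising ones (which leaves no value for Rgs19), Rgs1 ranged between 1.73 and 2.42 for LPS over media and between 1.14 and 1.28 for SEA over media. Rgs1, Rgs2 and Rgs19 lay above every floor tried, so the floors could not change them. Rgs1 has no other probe set, so the probe set rules could not change it either. Rgs2 ranged between -1.87 and -1.10, and Rgs19 between -2.07 and -1.37, for LPS over media. Their other probe sets read alone, at -0.88 and -1.22, lie outside these ranges. For Rgs10 the sign of LPS over media depended on the setting (-0.58 to 0.11), as it did for Rgs14 (-0.27 to 0.41).

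**Figure D4:**
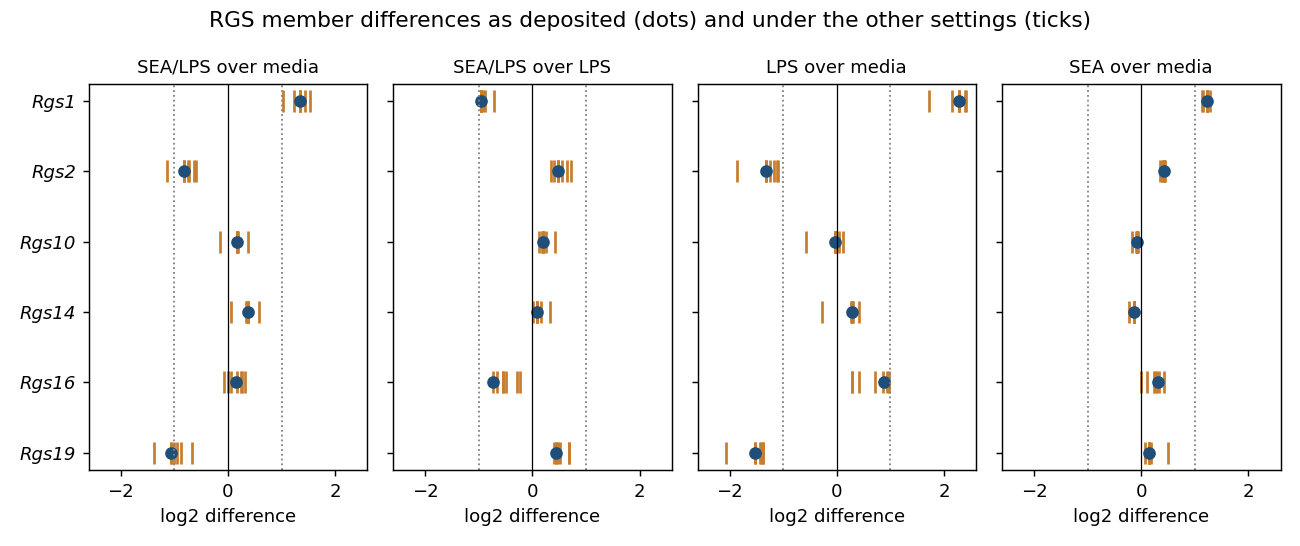
Log2 differences of the 6 RGS genes as deposited (dots) and under 8 other settings of scaling, floor and probe set choice (ticks); dotted lines mark 2-fold. Rgs1, Rgs2 and Rgs19 keep their side of 0 for LPS over media, while Rgs10 and Rgs14 cross it.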

How the data were processed

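Total RNA of 4 samples of mouse dendritic cells was read on Affymetrix arrays, 1 sample in each group, so no test, p-value or standard deviation is given. The values are linear array intensities as the authors deposited them, judged from their range and equal trimmed means. What software and background correction produced them is not stated in any label or header. A common trimmed mean hides differences in total RNA content. Of 22690 probe sets, 20380 carried 1 gene symbol in the platform annotation, and 20351 of these matched an Entrez ID in the RefSeq gene table of GRCm38.p6, which gave current names.

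Differences were taken between log2 values after flooring. A gene with several probe sets was represented by its brightest (highest average floored log2), and every probe set is shown for the members. Pathway genes were named when past 2-fold, at most 6 per list and comparison, together with set receptors and subunits. Gpsm1 and Rap1gap bounds were taken against the floor. The members and lists were chosen with earlier results of these data known. SEA/LPS over SEA was added after the values were seen. Calling was run on simulated data as a check of the code. The planted changes were well past 2-fold, in genes brighter than Rgs1, Rgs2 and Rgs16 in media, with little noise. The run therefore says nothing of dim genes, changes near 2-fold or the scatter of these arrays. Python 3.11.15, numpy 2.4.6, pandas 2.3.3 and matplotlib 3.10.9 were used. Alternatives covered 3 scalings, 2 other floors, a pseudocount of 16, 2 probe set rules and a 1.5-fold threshold.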

Additional observations from a re-analysis of the deposited data

Results flagged for a closer look

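Rgs1 stood out because its SEA difference had opposite signs without and with LPS: 1.23 log2 for SEA over media and -0.95 for SEA/LPS over LPS, a departure from additivity of -2.19. Rgs16 had the same signs, at least 0.32 log2 and -0.73, with a departure of -1.05 that rests on a media array at the floor. Neither difference was tested, since each group had 1 array. In size, the SEA/LPS over LPS values of both genes lie under the 90th percentile gap between probe sets of a gene in that comparison (1.01). For Rgs1 the departure ranged from -2.24 to -1.86 over the settings that could change it, and for Rgs16 from -1.14 to -0.29 over those tried.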

How the results depend on the processing

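The number of the 6 members past 2-fold for SEA over media was 1, Rgs1, under every setting. Other floors and probe set rules could not change Rgs1, which has 1 probe set and lay above every floor. For LPS over media it was 3, with 2 without cross-hybridising probe sets and 4 with a 1.5-fold threshold. For SEA/LPS over media it was 2 as deposited, 3 under hybridisation control scaling and with a 1.5-fold threshold, and 1, Rgs1, under 75th percentile scaling, under quantile normalization, with the mean of all probe sets and without cross-hybridising probe sets, a setting that also drops those shared by transcripts of 1 gene and leaves Rgs14, Rgs16 and Rgs19 with none. For SEA/LPS over LPS it was 0, and 2 with a 1.5-fold threshold (Rgs1 and Rgs16, both lower). Of 225 values of single members and departures under an alternative, 221 moved by less than 1.5-fold and 4, all of Rgs16, by more. Much of this count was fixed in advance, so it does not measure stability. Hybridisation control scaling shifts LPS over media by 0.55 log2, short of 1.5-fold, and the floors cannot move genes above them. No called value changed sign. All measured genes past 2-fold numbered 121 for SEA over media (43 with a floor at the 50th percentile, 804 at the 20th), 461 for SEA/LPS over LPS (304 and 1440 with those floors), 1373 for LPS over media (up to 2715 with hybridisation control scaling) and 1098 for SEA/LPS over media (up to 1960 with the lower floor). No paired analysis was possible because each group has 1 array. Dim signals limit Rgs16 most, and the number of arrays limits every value.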
